A study of Mus musculus with 4 samples.

Results

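miRNAs are numbered in the order in which they were registered, so the miRNAs with a number of 5000 or more are late entries, most of them found by deep sequencing. Among the 530 mouse miRNA names listed in plasma small extracellular vesicles (membrane-bound particles shed by cells), 133 carried a number of 5000 or more, with any letter or arm suffix, and 397 did not. The choice used the name alone and no measured value. The vesicles came from the blood of wild-type mice 12 h after sham surgery or after surgery for myocardial infarction (MI, death of heart muscle that has lost its blood supply), with 2 libraries per group. The labels state no strain, age or sex, no method of infarction and no number of animals per library, so a p-value here reflects library-to-library spread, part or all of which may be technical.

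A canonical miRNA is cut from a hairpin transcript first by Drosha in the nucleus and then by Dicer in the cytoplasm, and the retained arm guides Argonaute to mRNAs that pair with its seed, bases 2 to 8. A mirtron bypasses Drosha: the hairpin is a whole short intron that the spliceosome releases. In a tailed mirtron the hairpin occupies only one end of the intron, and the rest is trimmed away. Many late entries of the mouse registry are of these kinds or have hairpins in exons or repeats, and they are usually recorded at low copy numbers.

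Each captured RNA molecule was tagged with a unique molecular identifier (UMI) before amplification, so UMIs count molecules and reads per UMI give how often each tagged molecule was read. A library listed a name only from 10 UMIs on, and an unlisted name therefore had 0 to 9 UMIs. Sham replicates 1 and 2 held 377031 and 160451 miRNA UMIs, and MI replicates 1 and 2 held 218960 and 135334. Levels are given as UMIs per 1e6 miRNA UMIs of the library (CPM), and since each mature miRNA is read whole they need no length correction. Fewer vesicles that carry a miRNA and fewer copies per vesicle cannot be told apart in such values. The liver miRNA miR-122-5p, the endothelial miR-126a-3p, the leukocyte miR-142a-3p and miR-223-3p and the red cell miR-451a and miR-486b-5p were listed in all 4 libraries. The heart muscle miRNA miR-208a-3p was listed in both MI libraries and in neither sham library.

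The sequences of the high-numbered miRNAs that the results turn on are shown first, from RefSeq (GRCm38.p6), 5′ to 3′ with the seed in capitals. They comprise the most abundant names, the member with the smallest p, and both arms of a hairpin with both arms listed. RefSeq held a mature sequence for 115 of the 133.
miR-7648-5p: cCGCGUUCcgggcucggcgc
miR-6960-5p: cAGGAUGAgaagaguuuggcug
miR-7031-5p: cCUGAGAGgccugaaggguggga
miR-7672-5p: cGGUGGACuugacagcgggcga
miR-5126: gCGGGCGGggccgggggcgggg
miR-6991-3p: gCAGCCCUuuguucuucuccag
miR-8114: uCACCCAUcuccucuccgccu
miR-7018-3p: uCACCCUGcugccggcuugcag
miR-7048-3p: uCUUCCAUucucuuuccccag
miR-5627-5p: aGAGGGUGcgccgggcccugcg
miR-5627-3p: aCAGGGCUcuccggcgccccucgu
miR-8101: gGCGAGCGgagccggaggagcc
miR-5126 has a GC content of 100% and miR-7648-5p of 85%, while miR-7048-3p and miR-6960-5p stand at 47.6% and 50%. miR-6991-3p, miR-7048-3p and miR-7018-3p are 3p arms that end in AG, the last bases of an intron. No seed is shared among these 12.

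The high-numbered miRNAs were many names with few molecules. Sham replicate 1 listed 90 of them among 428 miRNA names (21.03%), sham replicate 2 listed 46 of 282 (16.3%), MI replicate 1 listed 44 of 306 (14.4%) and MI replicate 2 listed 44 of 261 (16.9%). They held 2203, 1015, 1043 and 1086 UMIs in the same order. That was 0.584% of the miRNA UMIs in sham replicate 1 (95% exact binomial interval 0.560 to 0.609, for counting error only), 0.633% in sham replicate 2 (0.594 to 0.673), 0.476% in MI replicate 1 (0.448 to 0.506) and 0.802% in MI replicate 2 (0.756 to 0.851). The sham libraries lay between the MI libraries. The mean share was 0.608% ± 0.0341 (SD, n = 2) after sham surgery and 0.639% ± 0.231 (n = 2) after MI, and an exact two-sided permutation test gave p = 1, where the smallest p that 2 against 2 libraries allow is 0.333. Within replicate numbers the difference of the MI from the sham library was -0.108 percentage points for number 1 and 0.170 points for number 2, so the direction was not shared.

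**Figure D1:**
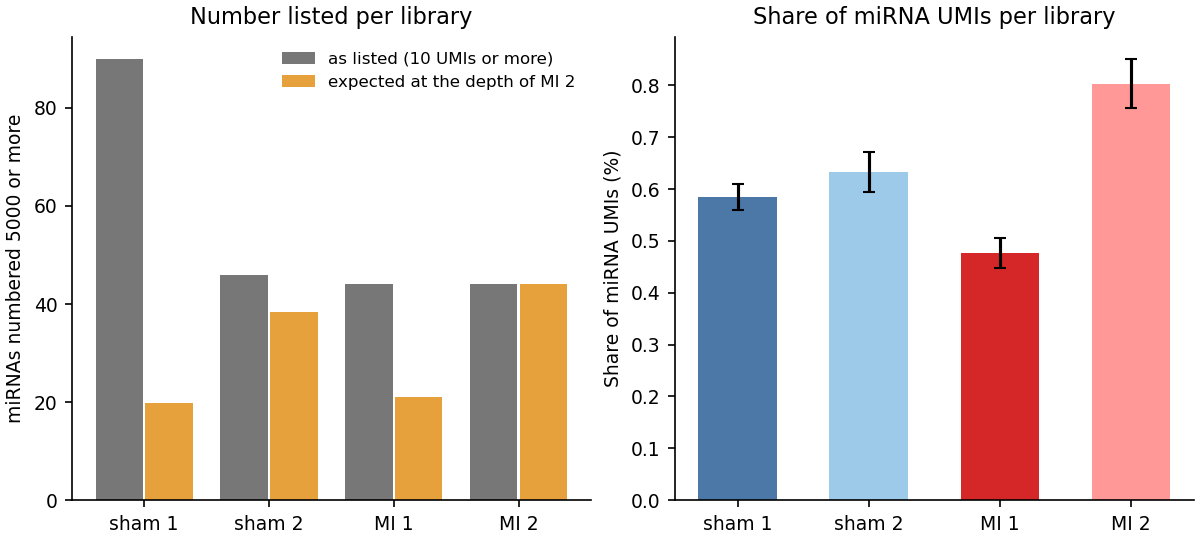
Left, the number of miRNAs numbered 5000 or more in each library, as listed (grey) and as calculated for each library thinned to the miRNA UMIs of MI replicate 2 (orange). Right, their share of miRNA UMIs with 95% exact binomial intervals; sham replicate 1 lists 90 names, yet both replicate 2 libraries stand above the replicate 1 libraries once depth is levelled.

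The deepest library listed the most names. At a floor worth 10 UMIs in the shallowest library, 73.9 CPM, sham replicates 1 and 2 kept 17 and 37 of the names and MI replicates 1 and 2 kept 18 and 44. Binomial thinning of every library to the depth of MI replicate 2 left 19.8 and 38.3 names on average for the sham libraries and 21.1 and 44 for the MI libraries, and the difference between the groups had an exact two-sided permutation p of 0.667. As a share of all names left at that depth these were 8.96% and 14.98% for sham and 9.18% and 16.9% for MI. The libraries separated by replicate number: the replicate 2 library held 1.93 times the thinned number of its replicate 1 counterpart after sham surgery and 2.09 times after MI. The headers of both replicate 2 files carry one extra word in their read-set names that the sources leave undefined, and its part in these values was not tested.

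Most of the names were near the listing floor. The median listed member had 15, 15.5, 15 and 14 UMIs in sham replicates 1 and 2 and MI replicates 1 and 2, against 39, 44.5, 41 and 48 for the other miRNAs. Between 59.1% and 70.5% of listed members had 10 to 19 UMIs, against 25.8% to 32.2% of the others. Reads that were assigned to miRNAs but belonged to no listed name numbered 160731, 91035, 97340 and 85606, which was 7.22 to 12.8 times the reads of the listed members. The members next to the limit of the rule were of the same kind. miR-5100 and miR-5108, the lowest-numbered members, were listed only in MI replicate 1 with 12 and 16 UMIs, and miR-5110 had 11 UMIs in sham replicate 1 and in MI replicate 2. Just below the limit, miR-3970 had 312, 127, 95 and 68 UMIs and miR-3969 had 97, 19, 24 and 25, while miR-3971 had 37 and 11 in the sham libraries and 17 in MI replicate 2 only.

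Few members recurred. Of the 133, 86 (64.7%) were listed in 1 library, 21 in 2, 8 in 3 and 18 (13.5%) in all 4. Of the other 397, 131 (33.0%) were listed in 1 library and 171 (43.1%) in all 4. Low recurrence was not particular to the members. Among the others, the 75 names from 1000 to below 5000 had 56% in 1 library and 18.7% in all 4. The 322 remaining others had 27.6% and 48.8%. Within the members, the 17 names of the 5000s had 47.1% and 23.5%. Sham replicate 1, the deepest library, alone held 52 of the members listed once, and the other libraries held 12, 12 and 10. The sham libraries shared 26 members, 28.9% of those of replicate 1 and 56.5% of those of replicate 2, and the MI libraries shared 24, 54.5% of each. Libraries of different groups with the same number shared 28 for number 1 (31.1% of the sham and 63.6% of the MI members) and 28 for number 2 (60.9% and 63.6%). Those of different group and number shared 25 for sham replicate 1 and MI replicate 2 (27.8% and 56.8%) and 22 for sham replicate 2 and MI replicate 1 (47.8% and 50%). For the other miRNAs the shared names made up 58.0% to 92.4% of a library's list over the same 6 pairs. At the common floor of 73.9 CPM, the shares over these pairs ran from 32.4% to 94.1% for members and from 79.7% to 90.7% for others. Of the 17 members that sham replicate 1 kept there, sham replicate 2 shared 88.2% and MI replicate 2 shared 94.1%. In reverse these were 40.5% and 36.4%. The 18 recurrent members held 49.3% and 52.0% of member UMIs in the sham libraries and 65.6% and 59.4% in the MI libraries.

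**Figure D2:**
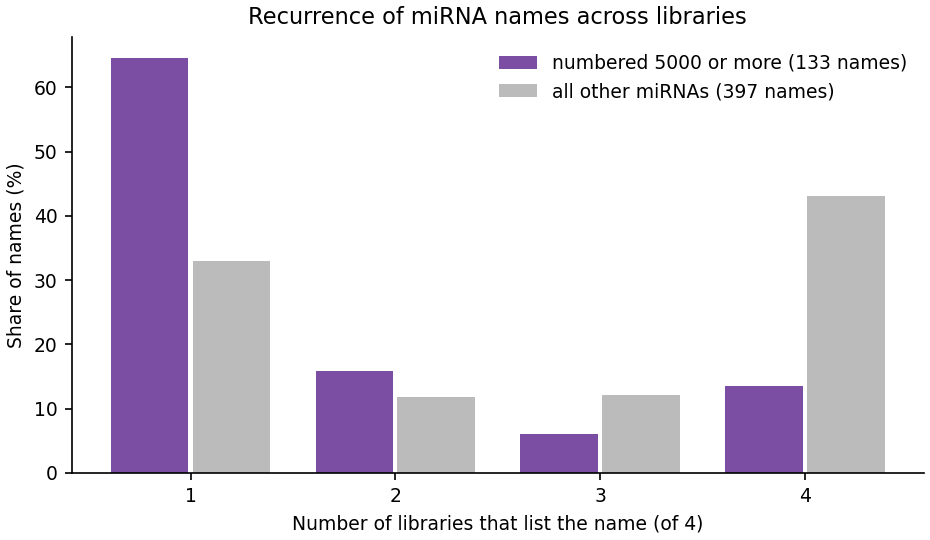
Share of names (y axis, percent) by the number of libraries that list them (x axis), for the 133 miRNAs numbered 5000 or more (purple) and the 397 others (grey). Single-library names make up 64.7% of the former and 33.0% of the latter. Among the others, they make up 56% of the 75 names from 1000 to below 5000.

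The top 3 members of each library took 18.2% and 19.2% of member UMIs in the sham libraries and 31.4% and 25.7% in the MI libraries. miR-7648-5p, whose hairpin lies in an exon of Alg10b, a glucosyltransferase gene of N-glycan assembly (chr15:90224360-90224379, plus strand), had 133 and 88 UMIs in the sham libraries and 91 and 110 in the MI libraries. Its levels of 353 and 548 CPM after sham surgery and 416 and 813 CPM after MI overlapped. miR-6960-5p, from the 3′ end of an intron of Troap, which encodes a spindle-associated protein (chr15:99080810-99080831, plus strand), had 141 and 56 UMIs after sham surgery and 121 and 83 after MI. miR-7031-5p, from the 3′ end of an intron of Sh2b3, which encodes an adaptor that restrains cytokine signalling in blood cells (chr5:121819246-121819268, minus strand), had 128 and 45 UMIs after sham surgery and 116 and 86 after MI. The top member of each library ranked only 102nd, 87th, 82nd and 71st among its miRNAs.

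Next in order came miR-7672-5p, miR-5126, miR-7211-3p, miR-5627-3p and miR-6991-3p. miR-7672-5p (chr14:26669587-26669608, minus strand) had 125 and 51 UMIs after sham surgery and 24 and 43 after MI, or 332, 318, 110 and 318 CPM, so 1 MI library stood low and the other matched the sham libraries. miR-5126, antisense to a gene (chr1:84695890-84695911, plus strand), had 43 and 46 UMIs after sham surgery and 74 and 43 after MI. Its lowest level, in sham replicate 1, was 114 CPM and the other 3 libraries lay at 287 to 338 CPM. miR-7211-3p had 53 and 27 UMIs after sham surgery and 23 and 41 after MI, with the sham libraries between the MI libraries in CPM. miR-6991-3p, from the 3′ end of an intron of 2700081O15Rik (chr19:7422621-7422642, plus strand), had 52 and 33 UMIs after sham surgery and 27 and 21 after MI, and its groups also overlapped.

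**Figure D3:**
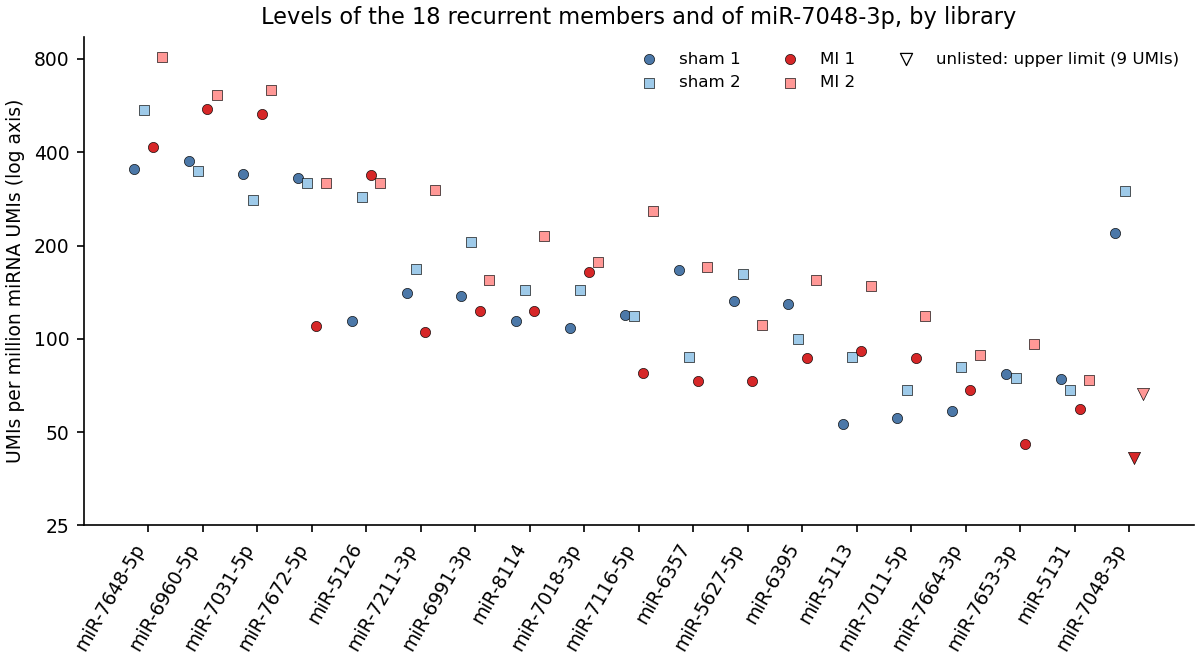
UMIs per 1e6 miRNA UMIs (log axis) of the 18 members listed in all 4 libraries, ordered by mean, and of miR-7048-3p at the right; circles are replicate 1, squares replicate 2, blue sham and red MI, and triangles give the upper limit of 9 UMIs where the name was unlisted. miR-6960-5p and miR-7031-5p lie higher in both MI libraries, and miR-7048-3p was listed only after sham surgery.

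Of all miRNAs, 267 passed the low-count filter and were tested between MI and sham with edgeR's quasi-likelihood F-test, and 6 of them (2.25%) passed a Benjamini-Hochberg adjusted p under 0.05. Of the 133 members, 33 were tested and none passed. DESeq2's Wald test called 1 of the 33, miR-7048-3p, against 8 higher and 7 lower among all 267 miRNAs. At an unadjusted p under 0.05 there were 3 members among the 33, against 39 of the 267 (14.6%). The median log2 fold change was 0.39 over the tested members and -0.01 over all tested miRNAs, and 21 of the 33 were above 0 against 49.4% of all. The direction of the members' median changed between fits. It was -0.64 over 59 members without MI replicate 2 and -0.15 over 54 without sham replicate 2. With no low-count filter and unlisted names entered as 0, it was -4.66 over all 133. Over all miRNAs tested in those 3 fits the median was -0.14, -0.19 and -0.39. With unlisted names entered at 9 UMIs, the median was 0.19 over the same 133 members and 0.05 over all 530 miRNAs. Leaving out a library also changed which names passed the filter, so the effect of the library and that of the set cannot be told apart in these values.

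miR-7048-3p had 83 UMIs (220 CPM, 95% Poisson interval 175 to 273) and 48 UMIs (299 CPM, 221 to 397) in sham replicates 1 and 2 and was unlisted in both MI libraries. An unlisted name allows at most 41.1 CPM in MI replicate 1 and 66.5 CPM in MI replicate 2, so it was at least 4.83-fold lower after MI, with 9 UMIs entered in each MI library. The lower sham value stood 3.31 times above the higher MI limit. It did not pass the edgeR test over all 267 miRNAs (adjusted p = 0.0822), and over the alternatives the adjusted p ran from 3.47e-08 to 0.450, below 0.05 in 6 of 13 and highest without sham replicate 1. Its hairpin lies on the minus strand at the 3′ end of a 1133-base intron of Dedd2, a death-effector-domain gene (chr7:25217668-25217725, minus strand). The hairpin is printed with the 3p arm in capitals, because its last bases coincide with the end of the intron.
Mir7048: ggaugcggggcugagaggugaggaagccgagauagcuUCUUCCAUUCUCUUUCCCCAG

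miR-7031-5p and miR-6960-5p were the members with the smallest p on the other side. miR-7031-5p stood at 310 ± 41.7 CPM (SD, n = 2) after sham surgery and 583 ± 74.7 CPM (n = 2) after MI, a 1.89-fold difference (log2 0.92, SE 0.24) with an edgeR adjusted p of 0.218. miR-6960-5p stood at 361 ± 17.6 and 583 ± 42.9 CPM, 1.63-fold (log2 0.71, SE 0.22), with an edgeR adjusted p of 0.290. Both MI libraries were above both sham libraries for each, and neither difference passed the threshold. Both names had few reads per UMI, as described further on. In reads, miR-7031-5p had 58.5 and 44.3 per 1e6 miRNA reads after sham surgery and 117 and 61.5 after MI, for a log2 fold change of 0.84 with an SE of 1.08. miR-6960-5p had 45.5 and 66.8 after sham surgery and 79.7 and 73.4 after MI, for a log2 fold change of 0.46 with an SE of 1.06, and edgeR's adjusted p on reads was 0.998 for both.

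The other members of the 10 with the smallest p on the higher side were miR-8101, miR-5126, miR-7648-5p, miR-6538, miR-5627-3p, miR-5113, miR-7018-3p and miR-7011-5p. Their log2 fold changes ran from 0.45 to 2.70 and their edgeR adjusted p from 0.600 to 0.868. miR-8101, from an exon of Hdac5, a class IIa histone deacetylase gene (chr11:102230103-102230124, minus strand), had 21 UMIs in sham replicate 1, was unlisted in sham replicate 2 and had 31 and 34 UMIs after MI. miR-6538, from an intron of Rnf144a, was unlisted in sham replicate 1, had 11 UMIs in sham replicate 2 and 24 and 27 after MI. miR-5113, from an exon of Tnrc6b, which encodes a scaffold of the miRNA silencing complex, had 20 and 14 UMIs after sham surgery and 20 and 20 after MI. On the lower side, besides miR-7048-3p, were miR-7672-5p, miR-5627-5p, miR-7654-3p, miR-7117-5p, miR-6991-3p, miR-6412, miR-6938-5p, miR-8105 and miR-6357, with log2 fold changes of -0.09 to -1.59 and edgeR adjusted p of 0.727 to 0.962. miR-7654-3p, from an exon of Arglu1, had 24 and 37 UMIs after sham surgery, was unlisted in MI replicate 1 and had 14 in MI replicate 2.

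By listing alone, 5 members were in both sham libraries and neither MI library: miR-5130, miR-6967-3p, miR-7048-3p, miR-7067-5p and miR-7667-5p. That is 3.76% of the members, against 18 of all 530 names (3.4%). Only miR-6237 had the opposite pattern, 1 of 133 (0.752%) against 9 of 530 (1.7%). Apart from miR-7048-3p they were at 10 to 19 UMIs where listed, and for each of them the lower value in the listed group was under the limit that an unlisted name allows in the other group. miR-6237 had 11 and 19 UMIs after MI, and miR-5130 had 18 and 16 after sham surgery.

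Both arms were listed for 9 numbers, namely 5132, 5627, 7011, 7047, 7082, 7116, 7227, 7654 and 7675. The hairpin of miR-5627 lies antisense to a gene, with the 5p arm at chr12:44210313-44210334, plus strand, and the 3p arm at chr12:44210350-44210373, plus strand. The 5p arm had 50 and 26 UMIs after sham surgery and 16 and 15 after MI. The 3p arm was unlisted in sham replicate 1, had 21 UMIs in sham replicate 2, 12 in MI replicate 1 and 66 in MI replicate 2. The more abundant arm was therefore 5p in the first 3 of these libraries and 3p in MI replicate 2, and neither arm passed the test. For 7011 and 7116 the 5p arm was listed in all 4 libraries and the 3p arm in MI replicate 2 only, with 12 UMIs each. The arms of 7047 were listed in sham replicate 1 only, with 19 UMIs for 5p and 14 for 3p, as were those of 7675, with 12 and 24.

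Hairpin positions were read from the annotation (GENCODE M21, GRCm38), so they are a property of the catalogue and were not measured in these libraries. Of the 107 members with a placed hairpin, 50 (46.7%) ended within 5 bases of the 3′ end of an intron, against 9 of 316 other miRNAs (2.85%). Nearly all of these carried a number from 6900 to below 7100, where 47 of 50 names (94%) did so. All 50 host genes were protein-coding, and the introns had a median length of 457.5 bases (77 to 9193). At both intron ends, the geometry of a mirtron in the strict sense, were 4 members (miR-6974-5p, miR-7018-3p, miR-7082-3p and miR-7082-5p) and 5 others. Names with a hairpin at an intron 3′ end held 41.9% and 35.7% of member UMIs in the sham libraries and 38.8% and 28.2% in the MI libraries. Summed over the libraries, miR-6960-5p and miR-7031-5p had the most UMIs among these names, with 401 and 375.

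**Figure D4:**
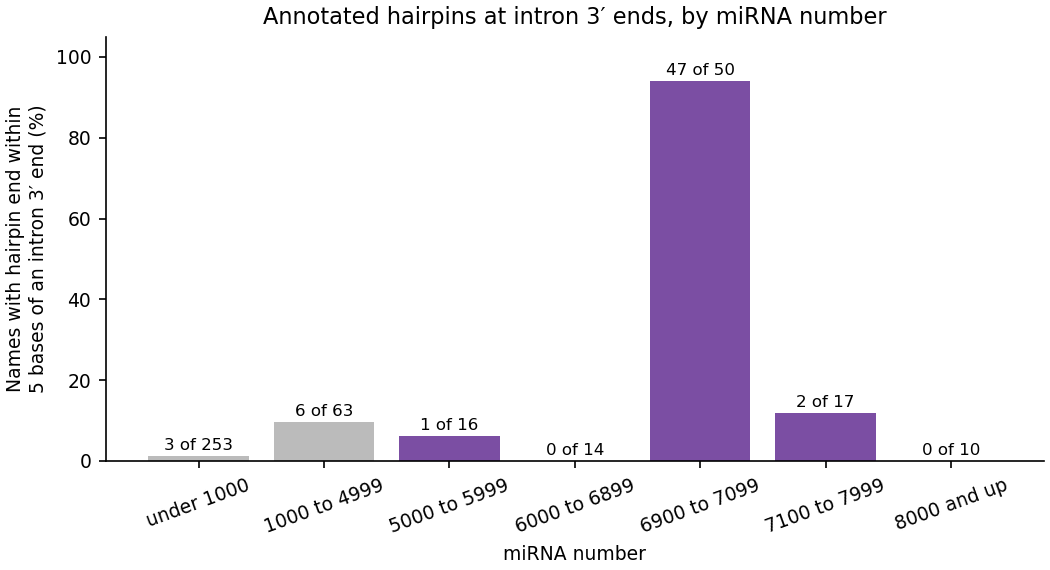
Share of names (percent) whose annotated hairpin ends within 5 bases of an intron's 3′ end, by miRNA number; purple bars are the miRNAs numbered 5000 or more, grey bars the others, and counts stand over the bars. The band from 6900 to below 7100 reaches 94%, and no other band passes 11.8%.

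miR-7018-3p is the clearest case among the recurrent members. Its hairpin is a complete 85-base intron of Hspg2, the gene of the basement membrane proteoglycan perlecan (chr4:137538286-137538370, plus strand), and the sequence begins with GU and ends with AG, with the 3p arm in capitals.
Mir7018: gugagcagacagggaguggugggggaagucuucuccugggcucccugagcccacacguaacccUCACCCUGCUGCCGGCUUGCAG
It had 41 and 23 UMIs after sham surgery and 36 and 24 after MI, or 109, 143, 164 and 177 CPM. Both MI libraries were above both sham libraries, but the difference was smaller than its standard error (log2 0.47, SE 0.53, edgeR adjusted p = 0.834).

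Base composition varied with the number. The median GC content was 59.1% for the 115 members with a sequence and 50% for 339 other miRNAs. It was 62.5% for the 5000s, 47.7% from 6000 to below 6900, 60.9% from 6900 to below 7100, 53.2% from 7100 to below 8000 and 61.9% above, and the nearest non-members, from 1000 to below 5000, stood at 56.5%. A run of GGG was present in 47.0% of members and 29.2% of others, and GGGG in 20.9% and 7.96%, read on the printed strand only. The arms differed: among 5p arms GGG was present in 77.8% of members and 27.9% of others, and among 3p arms in 20% and 31.3%. The 5p share was 90.3% from 6900 to below 7100 and 40% from 7100 to below 8000. Among 3p arms 19 of 35 members (54.3%) ended in AG, against 14 of 147 others (9.52%). Of these 19, 17 carried a number from 6900 to below 7100, where 20 3p arms had a sequence. Outside that band 2 of 15 member 3p arms ended in AG, and 5 of 20 (25%) did among non-members from 1000 to below 5000. Of the members with a hairpin at an intron 3′ end, 31 were 5p arms with 1339 UMIs summed over the libraries and 18 were 3p arms with 646. The 5p total included miR-6960-5p with 401 UMIs and miR-7031-5p with 375, both under 3 reads per UMI in every library. The 3p total included miR-6991-3p with 133, miR-7048-3p with 131 and miR-7018-3p with 124.

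A few members began like an abundant miRNA. miR-6353, with 14 UMIs in sham replicate 1 only, shares its first 12 bases with miR-16-5p, one of the most abundant miRNAs here with 281160 UMIs summed over the libraries. miR-6369, with 13 UMIs in sham replicate 1 only, shares its first 13 bases with miR-24-3p, which had 3445 UMIs. The shared bases are in capitals.
miR-6353: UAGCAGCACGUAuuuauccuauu
miR-16-5p: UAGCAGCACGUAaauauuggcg
miR-6369: UGGCUCAGUUCAGuguuggugag
miR-24-3p: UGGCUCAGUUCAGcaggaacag
miR-6341 shares 10 bases in this way with miR-130a-3p, and miR-6419 has the seed of miR-16-5p alone. Longer matches to listed transcripts outside the miRNA, piRNA and tRNA classes were rare. Of 115 members, 7 (6.09%) had an exact run of at least 14 bases there, against 21 of 339 others (6.19%). A run of 16 or more was found for 1 member. Of 411 such transcripts 397 had a sequence, and piRNA and tRNA entries were not searched. In a miRNA at least 10 times as abundant, 0 members and 6 others had a run of at least 14 bases.

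Reads per UMI were lower for members than for other miRNAs in every library. The medians were 11.3, 9.28, 8.45 and 9.85 reads per UMI for members in sham replicates 1 and 2 and MI replicates 1 and 2, and 13.3, 11.7, 11.4 and 11.8 for the others. Lower reads per UMI were not particular to the members. Among the others, the names from 1000 to below 5000 had medians of 11.4, 9.97, 9.62 and 9.999 in the same order. The remaining others had 13.7, 11.9, 11.5 and 11.9. Members lay below the names from 1000 to below 5000 in every library, but by less than below the remaining others. Among names with 10 to 49 UMIs the medians were 11.3, 9.35, 8.45 and 9.98 for members against 12.2, 10.8, 10.03 and 10.8 for all others. The gap was smaller within that range, where members and others were not matched for counts. A group of names lay under 3 reads per UMI: 8, 5, 6 and 3 members (6.82% to 13.6% of those listed), close to the 8.47% to 10.3% of the others. Of the 11 members ever found there, 4 were there in every library of several that listed them. These were miR-6960-5p (1.41 to 2.23 reads per UMI), miR-7031-5p (1.14 to 2.47), miR-7018-3p (1.00 to 2.33) and miR-7216-5p (1.00 in both of its libraries). The names under 3 reads per UMI carried 18.9% and 14.5% of member UMIs in the sham libraries and 30.0% and 17.8% in the MI libraries. Among the members listed in all 4 libraries, miR-7648-5p and miR-7211-3p had the highest means, 13.9 and 13.3 reads per UMI. The highest of all members was miR-6769b-3p at 22.5, which was listed in 1 library.

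**Figure D5:**
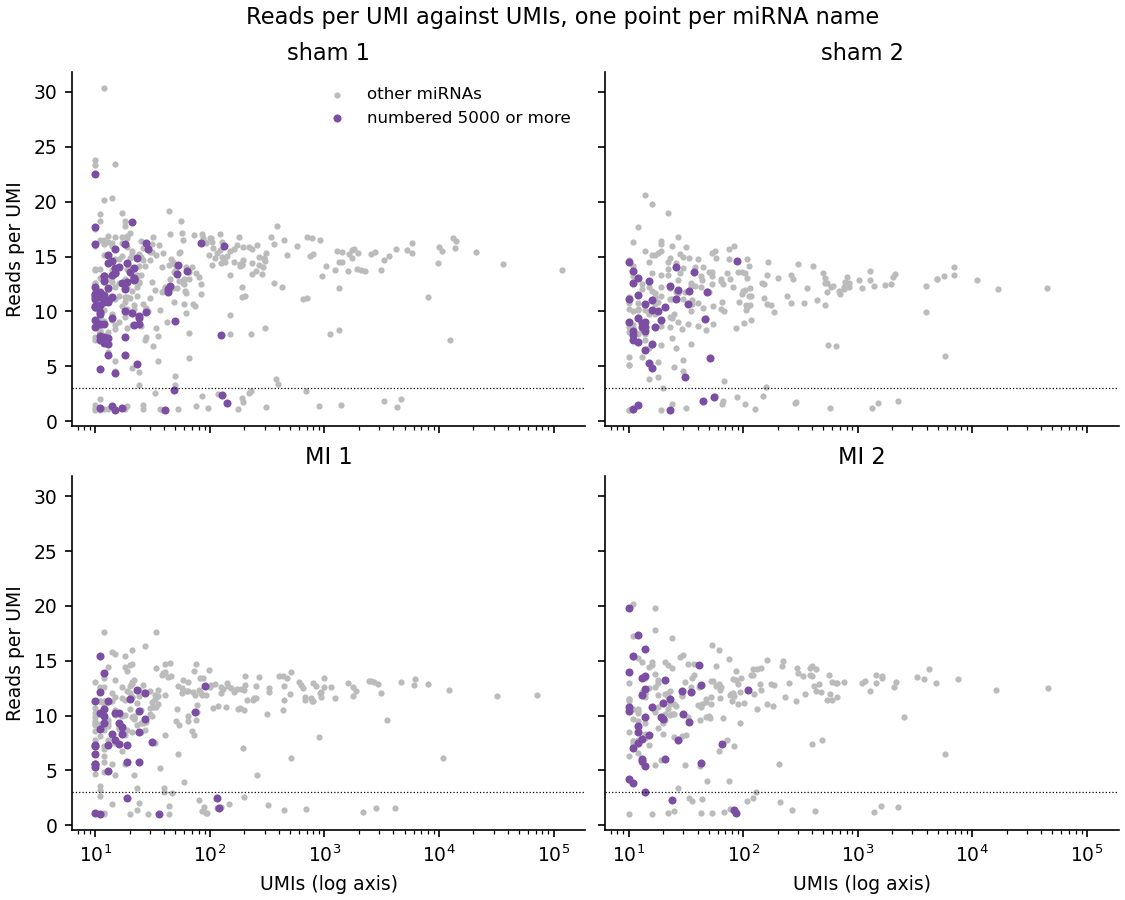
Reads per UMI (y axis) against UMIs (x axis, log) for every listed miRNA in each library, with the miRNAs numbered 5000 or more in purple and the others in grey; the dotted line marks 3 reads per UMI. The purple points sit at low UMIs, and a band of both kinds lies under the line, separate from the main cloud.

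The names under that line differed in how near they were to abundant miRNAs. For 26 other miRNAs with a mean under 3 reads per UMI, the median edit distance to a miRNA at least 10 times as abundant, on either strand, was 6, and 16 (61.5%) lay at 6 or less. The 8 members with such a mean and a sequence had a median of 9 (7 to 10), and none lay at 6 or less. Among these 8, miR-6353 (1.36 reads per UMI) lay at 8, although it shares its first 12 bases with miR-16-5p. A distance over the whole length can miss such a match at the 5′ end. At 3 or more reads per UMI, 3.74% of members and 8.09% of others lay at 6 or less.

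miRNAs of lower number that bypass Drosha, or are processed in an unusual way, gave a set of 10 names for comparison, of which 4 were listed in all 4 libraries, 2 in 1 library and 4 in none. The mirtron arm miR-877-3p had 25, 14, 30 and 12 UMIs in sham replicates 1 and 2 and MI replicates 1 and 2. Its partner miR-877-5p was listed in sham replicate 1 only, with 26 UMIs, and the mirtron arm miR-1224-3p in MI replicate 2 only, with 10. miR-1981-5p had 93, 64, 62 and 63 UMIs, miR-320-3p had 184, 115, 187 and 121 UMIs and miR-484, whose hairpin is the transcript's own 5′ end, had 49, 29, 51 and 20.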

How the data were processed

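Plasma small extracellular vesicle RNA of 4 libraries (2 sham, 2 MI) was sequenced with the QIAseq miRNA kit, per the labels' protocols. The deposited values are raw counts, UMIs and reads per feature, per the file headers, with no normalization recorded. The sources used here name neither an aligner nor a genome build. No listed feature had fewer than 10 UMIs, and unlisted names were entered as 0. Groups and replicate numbers came from the sample titles.

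Members were all miRNA names with a number of 5000 or more that at least 1 library listed. The members, lists and rule for named miRNAs were chosen with earlier results of these data known. The rule took up to 10 tested members per direction by p, the 8 most abundant, those listed in both libraries of only 1 group, the extremes of reads per UMI, the names next to 5000 and the arm pairs. The split at 3 reads per UMI, the edit distances and the shared runs were set after the values were seen.

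edgeR 4.0.16 (R 4.3.3) compared UMI counts of all miRNAs by its quasi-likelihood F-test, scaled by TMM. The filter filterByExpr (counts of 10, totals of 15) left 267 miRNAs, over which p-values were Benjamini-Hochberg adjusted. The test was two-sided and checked on simulated data. The simulation used a dispersion of 0.0586, that of miRNAs listed in all 4 libraries. The tested miRNAs had a common dispersion of 0.364, so the check was run at lower noise than theirs. Single values were compared with an exact permutation test. Sequences came from RefSeq (GRCm38.p6) by name, and hairpin positions were set against GENCODE M21 introns (GRCm38). Alternatives were read counts, other scalings and filters, DESeq2 1.42.0, a replicate block, other denominators, unlisted names at 9 UMIs and leaving out each library.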

Additional observations from a re-analysis of the deposited data

How the results depend on the processing

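No member passed the edgeR test in the fit reported. One member was called with the DESeq2 Wald test, 1 with no low-count filter and 1 with unlisted names at 9 UMIs, each time miR-7048-3p. Over all miRNAs the DESeq2 Wald test called 8 higher and 7 lower of 267. The fit with no low-count filter called 8 higher and 12 lower of 530. With unlisted names at 9 UMIs, 5 were called higher and 5 lower of 530. Leaving out 1 library at a time left a group without replication, so the number of members called in those fits is not given. Their tests assume that the lone library varies like the others. Some of the gained calls counted next came from these fits. Of 282 alternative values for 21 named members, 265 kept direction and side of the threshold, 9 gained a call and 8 reversed, the last all on leaving out a library: miR-7648-5p (range over the 4 left-out libraries -0.025 to 0.75), miR-5627-3p (-0.14 to 8.96), miR-7211-3p (-0.47 to 0.82), miR-6938-5p (-7.10 to 0.32), miR-8105 (-7.69 to 7.08) and miR-6357 (-0.73 to 0.40), as log2 fold changes. The cause was not tested.

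The share of miRNA UMIs, 0.0310 percentage points higher after MI, reversed in reads (-0.00838), for numbers of 6000 or more (-0.00557) and without MI replicate 2 (-0.132), and leaving out 1 library gave -0.132 to 0.194. It was 0.207 with unlisted names at 9 UMIs, 0.0859 for members listed in all 4 libraries, 0.0146 without the most abundant member and 0.00900 with UMIs of all 4 RNA classes as denominator. The number listed, 24 lower after MI (a difference of -24), became 4 higher at the floor of the shallowest library and 3.49 higher after thinning, which was added after seeing the data, and leaving out 1 library gave -46 to -2. The gap in reads per UMI, -2.33 on average, was -3.27 for summed reads over summed UMIs and -1.19 at 10 to 49 UMIs.

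With a replicate block in edgeR no member was called (0) and the adjusted p of miR-7048-3p was 0.127. The mean within-number difference in share was 0.0310, which equals the difference of group means by arithmetic and is no separate check. Deviations of same-numbered libraries correlated at 0.0812 over 267 tested miRNAs, 0.245 over the 189 listed in all 4 libraries and 0.46 over the 33 tested members, and labels do not say that numbers mark a shared source. At 10 to 19 UMIs, where most members lay, counting error and the listing floor limit what can be told between libraries.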
